A study of Mus musculus with 6 samples.

Results

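Genes of extracellular and cell-surface metalloproteases and of their inhibitors were followed in mouse embryonic stem cells that had been differentiated for 14 days and sorted on an Nkx2-1 reporter. The members were the ADAM, ADAMTS, ADAMTS-like, MMP and TIMP genes that had a row with exactly 1 gene symbol in the array annotation, chosen by symbol and not by their values. There were 83 such genes of 19938 genes in all: 34 ADAM, 18 ADAMTS, 5 ADAMTS-like, 22 MMP and 4 TIMP genes. For genes with several rows, the one with the strongest mean signal across all 6 samples was read. One sorted fraction, called Nkx2-1 high, held 3 samples of GFP-positive cells (genotype labelled Nkx2-1GFP+). The other, called Nkx2-1 low, held 3 samples of GFP-negative cells (labelled Nkx2-1GFP-). Both came from cells of the W4/129S6 background with green fluorescent protein knocked into Nkx2-1, a transcription factor gene of lung, thyroid and ventral forebrain. The reporter marks Nkx2-1 expression and not 1 lineage, and no label says how many ES cell clones were used. The labels call the samples of a fraction biological replicates without saying whether each came from its own differentiation culture, so p-values measure only the spread between these samples. The study sought lung and thyroid progenitors, and the comparison asks which genes differ between the sorted fractions.

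ADAM proteins are membrane proteins that cut other membrane proteins near the cell surface and so release growth factors, receptors and adhesion molecules, although several members lack a working protease site. ADAMTS proteins are their secreted relatives, which bind the matrix and cut proteoglycans, procollagens and microfibril proteins. MMPs cut collagens, gelatin and many other matrix and non-matrix proteins, and TIMPs are the secreted inhibitors of MMPs and of some ADAM and ADAMTS proteases. In a developing lung these enzymes act at the border of epithelium and mesenchyme, where matrix is remodelled as buds branch.

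The values are log2 expression values. As a measure of background, the 95th percentile of all values on olfactory and vomeronasal receptor rows was used, which came to 4.30. In at least 1 fraction, 49 members had a group mean over it. Each difference was taken as Nkx2-1 high minus Nkx2-1 low, and the value after ± is limma's standard error (SE) unless SD is written. A gene is said to rise or fall in Nkx2-1 high only at a limma adjusted p under 0.05, adjusted over all 19938 genes. Levels of different genes come from different probes and were not compared with each other. Nkx2-1 itself stood at 7.72 ± 0.08 in Nkx2-1 high, against 5.33 ± 0.09 in Nkx2-1 low (SD, n = 3 each), so the labels of the fractions fit the gene they were sorted on. Across genes, samples correlated at Pearson r from 0.994 to 0.996 within a fraction and from 0.988 to 0.991 between fractions.

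Markers of several cell types moved with the fractions, and their part in the results below was not tested. For comparison, 2.9% of all genes rose and 3.09% fell. Of 9 mesenchyme markers 7 fell, and their summed linear signal ran from 2337 to 3193 in Nkx2-1 high and from 5508 to 6666 in Nkx2-1 low. Of 7 neuron markers 6 fell, with sums of 187 to 227 in Nkx2-1 high and 385 to 438 in Nkx2-1 low. Of 6 endothelial markers Tek rose, with sums of 196 to 273 in Nkx2-1 high and 171 to 193 in Nkx2-1 low, and Cdh5 was not above background. The uncalled Emcn (log2 difference 0.59) and Pecam1 (0.33) lay higher, and the uncalled Kdr (-0.08), Flt1 (-0.12) and Cdh5 (-0.17) lower. Of 7 epithelial markers Epcam fell, with sums of 214 to 273 in Nkx2-1 high and 236 to 278 in Nkx2-1 low. Among the uncalled ones, Krt8, Krt18 and Krt19 lay higher, and Cdh1, Cldn6 and Cldn7 (not above background) lower. Of 5 endoderm markers Hhex rose and Sox17 was not above background, with sums of 696 to 767 in Nkx2-1 high and 601 to 678 in Nkx2-1 low. Most of this sum is Cxcr4, at 9.17 in Nkx2-1 high, against 8.91 in Nkx2-1 low, which was not called (limma adjusted p = 0.115). Also uncalled, Sox17 (0.20) lay higher, and Foxa1 (-0.41) and Foxa2 (-0.04) lower. Of the blood and macrophage markers Cd68 alone, of 5, was above background, with sums of 111 to 131 in Nkx2-1 high and 104 to 115 in Nkx2-1 low, and the ES cell markers Pou5f1, Nanog, Zfp42 and Esrrb were not, although the samples carry the cell type label of ES cells. In bulk samples, fewer cells of a type and less RNA per cell cannot be told apart.

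Of the 83 members, 5 rose and 3 fell, or 9.64%, where 6.0% of all genes were called, 2.9% higher and 3.09% lower. All 8 called members were among the 49 above background (16.3%), where 8.4% of all genes above background were called. Of those 8, 7 belonged to the 23 ADAMTS and ADAMTS-like genes, 1 to the 34 ADAM genes and 0 to the 26 MMP and TIMP genes. In these sets 22, 14 and 13 genes lay above background, in that order. The median log2 difference was 0.03 over the members and -0.01 over all genes. At an unadjusted p under 0.05, 12 of the 83 members were higher and 4 lower, where 8.57% of all genes were higher and 10.4% lower. The fractions did not overlap for 20 members, against 24.7% of all genes. Adamts6 (2.82-fold higher) and Adamts5 (2.50-fold higher) had the largest changes. The other called members differed by 1.28-fold to 1.47-fold.

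**Figure D1:**
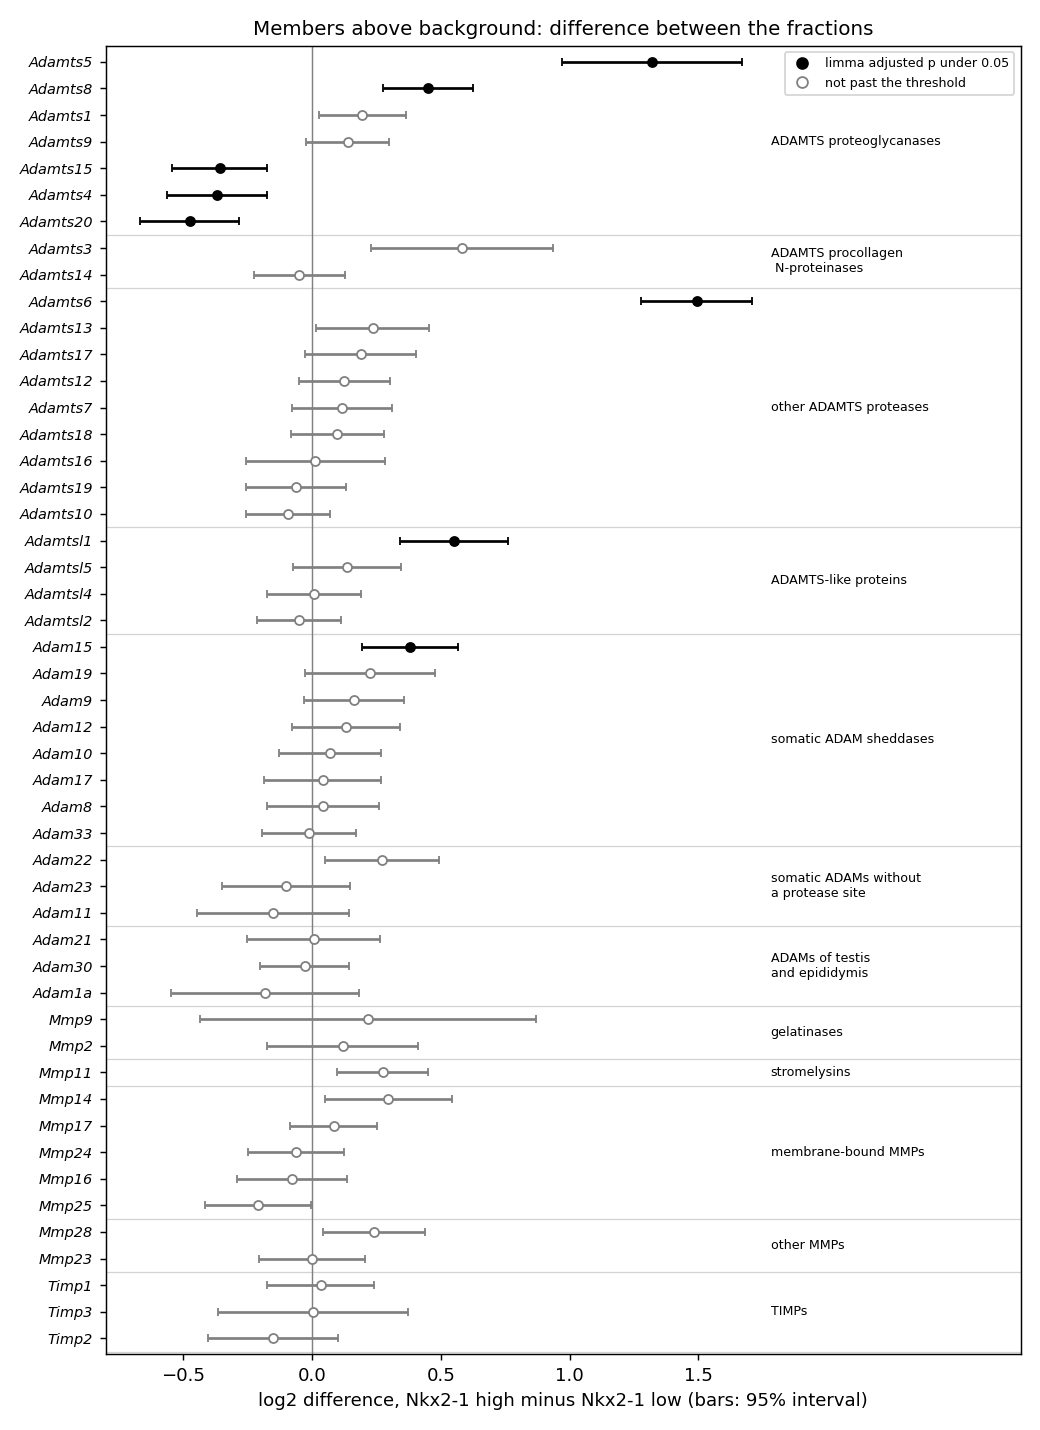
Log2 difference, Nkx2-1 high minus Nkx2-1 low (x axis), of the 49 members above background, grouped by role (y axis), with bars for the 95% interval from limma. Filled points mark the 8 members with an adjusted p under 0.05. Adamts6 and Adamts5 lie far to the right at 1.49 and 1.32, and the ADAMTS proteoglycanases spread to both sides of 0.

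The promoters of the called members Adam15 and Adamts20 are shown with 3 of the MMP cluster on chromosome 9, whose genes were not above background and share a motif. Each is the 250 bases before the gene's start from RefSeq (build GRCm38.p6), written 5′ to 3′ along the gene. Capitals mark the AP-1 element TGANTCA, the site of Fos and Jun dimers known from collagenase and stromelysin promoters, and CAAGTG on either strand, the core that NKX2-1 binds. The motifs do not overlap in any of these windows.
Adam15 promoter (chr3:89350029-89350278, - strand): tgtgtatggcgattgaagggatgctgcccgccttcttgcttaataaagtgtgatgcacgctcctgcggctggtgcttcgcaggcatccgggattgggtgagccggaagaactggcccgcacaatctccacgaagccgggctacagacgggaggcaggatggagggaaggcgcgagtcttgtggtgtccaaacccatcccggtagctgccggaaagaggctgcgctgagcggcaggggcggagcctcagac
Adamts20 promoter (chr15:94404351-94404600, - strand): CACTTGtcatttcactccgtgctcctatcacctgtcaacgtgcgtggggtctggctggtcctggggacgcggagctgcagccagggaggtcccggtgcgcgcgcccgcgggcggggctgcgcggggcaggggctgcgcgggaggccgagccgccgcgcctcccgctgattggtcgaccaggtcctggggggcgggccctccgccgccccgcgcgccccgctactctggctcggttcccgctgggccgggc
Mmp13 promoter (chr9:7272264-7272513, + strand): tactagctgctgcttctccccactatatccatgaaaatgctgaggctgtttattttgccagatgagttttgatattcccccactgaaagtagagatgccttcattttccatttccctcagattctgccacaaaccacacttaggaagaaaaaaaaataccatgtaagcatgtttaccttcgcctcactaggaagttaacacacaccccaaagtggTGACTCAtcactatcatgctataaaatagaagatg
Mmp3 promoter (chr9:7445572-7445821, + strand): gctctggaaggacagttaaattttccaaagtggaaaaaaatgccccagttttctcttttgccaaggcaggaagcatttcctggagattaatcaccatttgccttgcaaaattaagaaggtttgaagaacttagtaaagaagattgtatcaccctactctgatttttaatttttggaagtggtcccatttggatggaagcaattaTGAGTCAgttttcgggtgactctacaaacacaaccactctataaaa
Mmp10 promoter (chr9:7502092-7502341, + strand): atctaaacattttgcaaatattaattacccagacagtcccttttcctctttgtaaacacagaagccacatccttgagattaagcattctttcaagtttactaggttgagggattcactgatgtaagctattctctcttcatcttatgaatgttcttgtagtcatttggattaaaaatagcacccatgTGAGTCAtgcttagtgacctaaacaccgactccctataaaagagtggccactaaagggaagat

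Mmp13, Mmp3 and Mmp10 carried 1 AP-1 element each, with the first base at -35, -46 and -63 from the start. Of the 10 genes of the cluster (Mmp13, Mmp12, Mmp1b, Mmp3, Mmp1a, Mmp10, Mmp8, Mmp27, Mmp20 and Mmp7, which follow each other with no other protein-coding gene between them), 8 had a promoter window with TGANTCA (8 of their 12 windows), and the motif was in 6.75% of all 32851 windows of this length. CAAGTG was in 11.6% of all windows and in 5 of the 57 windows of members (8.77%). Of the called members, only Adam15 and Adamts20 had a promoter entry, and the others, such as Adamts6 and Adamts5, had none. The window of Adamts20 held CAAGTG, which began at -250 on the reverse strand. Adam15 had neither motif in its window. Of the genes of AP-1 subunits, Fos had log2 values of 7.58, 7.31 and 7.11 in Nkx2-1 high, against 5.87, 5.86 and 5.58 in Nkx2-1 low, and rose by 1.56 ± 0.13 (adjusted p = 0.000141). Fosb rose by 1.86 ± 0.20 (adjusted p = 0.000759). No Jun gene and no other Fos-family gene was read here, so Fos and Fosb do not stand for the AP-1 family. They were picked by name, outside the members and lists, with earlier results of these data known. All 10 cluster genes were not above background in either fraction, the 8 with the motif as well as Mmp8 and Mmp27 without it. Whether AP-1 acts on these genes was not tested. Such a match describes letters in a window and does not show that a factor binds there. In all, 52 of the 83 members had a promoter entry.

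The largest change was in Adamts6, whose protease cuts microfibril and latent TGF-beta binding proteins and which is needed for heart development in mouse. Its log2 expression was 7.96, 8.06 and 7.79 in Nkx2-1 high, against 6.49, 6.53 and 6.31 in Nkx2-1 low. The lowest Nkx2-1 high sample stood well over the highest Nkx2-1 low sample. The difference was 1.49 ± 0.10 (limma adjusted p = 3.83e-05), and its 95% interval ran from 1.28 to 1.71. An exact two-sided permutation test over the 6 samples gave p = 0.1, the smallest that 3 against 3 allow. Every gene whose fractions do not overlap gets this value, so the test adds no support. Adamts10, the closest relative of Adamts6, stood at 7.81 ± 0.03 in Nkx2-1 high, against 7.91 ± 0.04 in Nkx2-1 low (SD, n = 3 each), a difference of -0.09 with a 95% interval from -0.26 to 0.07 that did not pass.

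The proteoglycanases, which cut aggrecan, versican and related proteoglycans of the matrix, were all above background and moved both ways. Of 7 genes 2 rose and 3 fell, where 8.4% of all genes above background were called. The fractions did not overlap for any of the 7, against 4200 of the 13404 genes above background and 24.7% of all genes. This role group was drawn up with earlier results of these data known. Adamts5, the main aggrecanase of mouse cartilage, had log2 values of 6.68, 6.92 and 7.22 in Nkx2-1 high, against 5.45, 5.50 and 5.91 in Nkx2-1 low. It rose by 1.32 ± 0.16 (adjusted p = 0.00112). In each fraction the sample numbered 3 was the highest, and without it in both fractions the gene was still called. Adamts8, a versican-cutting protease, stood at 4.96, 5.05 and 5.09 in Nkx2-1 high, against 4.54, 4.56 and 4.65 in Nkx2-1 low. It rose by 0.45 ± 0.08 (adjusted p = 0.00863), at levels that in both fractions lay below the 99th percentile of the receptor rows, 5.33.

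Adamts4, Adamts15 and Adamts20 fell. Adamts20, a versicanase gene mutated in belted mice with a gap in coat pigment, stood at 4.70, 4.66 and 4.84 in Nkx2-1 high, against 5.17, 5.31 and 5.14 in Nkx2-1 low (difference -0.47 ± 0.09, adjusted p = 0.0111). Adamts4, another aggrecanase gene, stood at 5.75, 5.73 and 5.63 in Nkx2-1 high, against 6.12, 6.16 and 5.93 in Nkx2-1 low (difference -0.37 ± 0.09, adjusted p = 0.0367). Adamts15, which also encodes a versican-cutting protease, stood at 4.67, 4.76 and 4.76 in Nkx2-1 high, against 5.15, 5.14 and 4.97 in Nkx2-1 low (difference -0.36 ± 0.08, adjusted p = 0.0329). The falls were small, though the fractions did not overlap, and Adamts20 and Adamts15 too stayed under 5.33 by their group means. Each of these calls was lost in some of the 6 fits that left out 1 sample: Adamts20 in 2 (adjusted p up to 0.0593), Adamts4 in 5 (up to 0.137) and Adamts15 in 5 (up to 0.120). None of the 3 was called without replicate 2 of either fraction, and Adamts4 and Adamts15 were called only when Nkx2-1 low replicate 3 was the one left out.

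The remaining proteoglycanase genes did not pass. Adamts1, a versicanase gene known from ovulation, stood at 7.13 ± 0.06 in Nkx2-1 high, against 6.94 ± 0.04 in Nkx2-1 low (SD, n = 3 each, limma adjusted p = 0.187). Adamts9, which acts with ADAMTS20 in mouse palate and pigment cell development, stood at 8.29 ± 0.01 in Nkx2-1 high, against 8.15 ± 0.05 in Nkx2-1 low (SD, n = 3 each, limma adjusted p = 0.349). Both differences were small, at 0.20 ± 0.08 and 0.14 ± 0.07. The array measures Adamts9 with 6 rows. All 6 were higher in Nkx2-1 high, by 0.10 to 0.27, with no overlap of the fractions, and 0 were called. Rows of 1 gene share the same samples and are not independent. By the order of protein-coding genes in RefSeq (GRCm38.p6), Adamts1 lies next to Adamts5 on chromosome 16, and Adamts15 lies next to Adamts8 on chromosome 9. The first pair differed by 0.20 and 1.32, and the second, of which both genes were called, by -0.36 and 0.45.

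**Figure D2:**
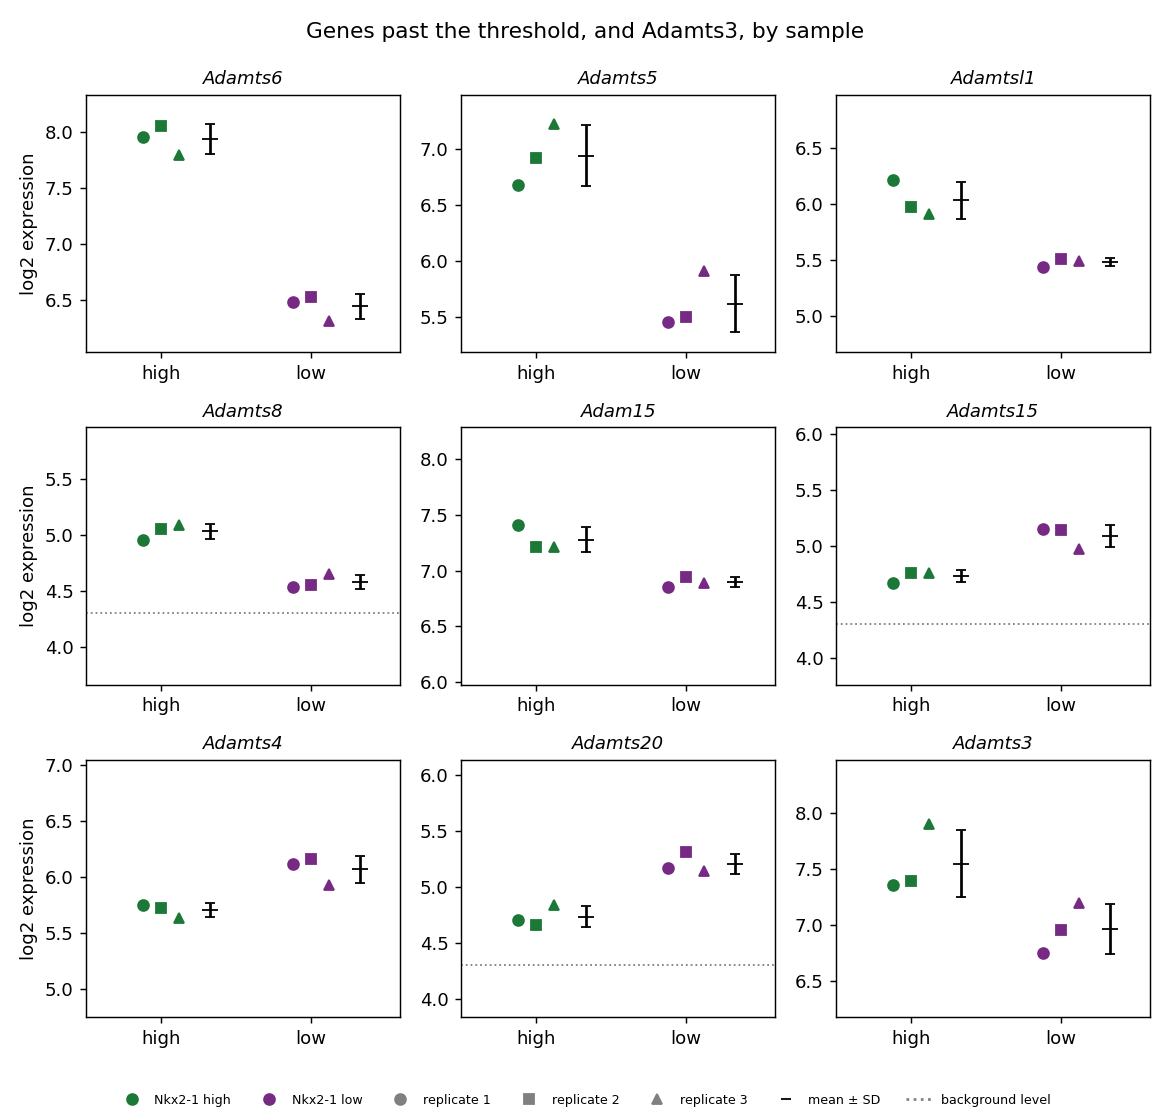
Log2 expression (y axis) of the 8 called members and of Adamts3 in each sample of Nkx2-1 high (green, left) and Nkx2-1 low (purple, right), with mean ± SD (n = 3) in black and the background level of 4.30 as a dotted line where it falls within the panel. All panels span the same log2 range, and the fractions do not overlap in any of the 9.

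Adamts3 encodes a procollagen N-proteinase that also takes part in the activation of VEGF-C for lymphatic vessels. In its highest-signal row it stood at 7.36, 7.40 and 7.90 in Nkx2-1 high, against 6.75, 6.96 and 7.20 in Nkx2-1 low. The difference of 0.58 ± 0.16 missed the threshold (adjusted p = 0.0636), though the fractions did not overlap. The array measures this gene with 16 rows. All 16 rows were higher in Nkx2-1 high, by 0.39 to 0.83, and 11 of them were called when all rows were fitted together, where 5.88% of rows were called. With the mean over its rows the gene was called (difference 0.61 ± 0.13, adjusted p = 0.0258), as were 5.96% of genes. It was also called with arrays centred on their medians (adjusted p = 0.0446), among genes above background only (0.0427), in the trended robust fit (0.0426) and without Nkx2-1 low replicate 3 (0.0473). It was not called with cyclic loess (0.0717), with array weights (0.0553) or in the other 5 fits that left out 1 sample (0.0730 to 0.184). These rows share the same 6 samples and are not independent. Adamts14, the other measured procollagen N-proteinase gene, stood at 5.17 ± 0.09 in Nkx2-1 high, against 5.22 ± 0.02 in Nkx2-1 low (SD, n = 3 each).

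**Figure D3:**
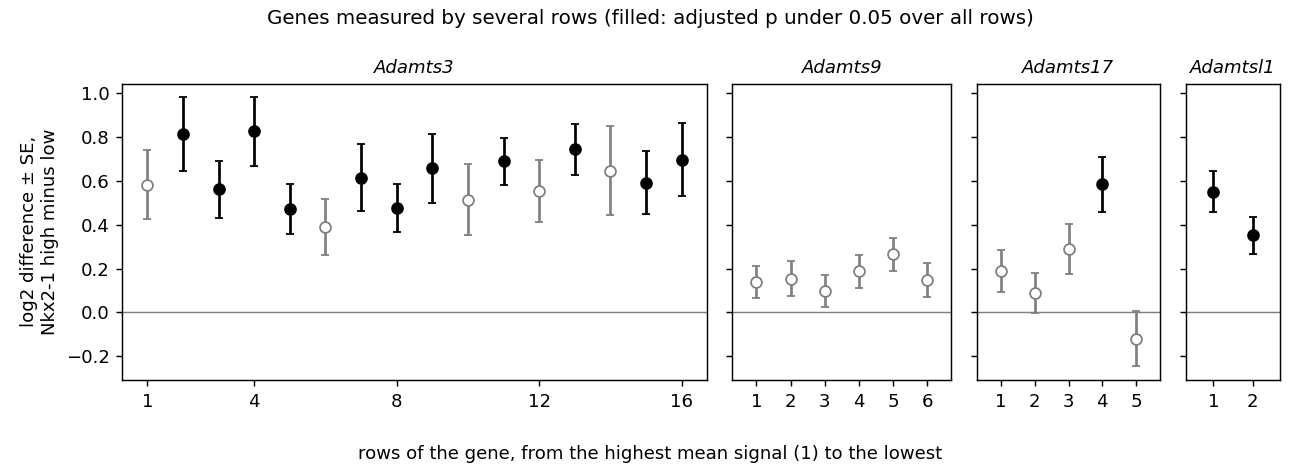
Log2 difference ± SE, Nkx2-1 high minus Nkx2-1 low (y axis), for every row of the 4 members with several rows, ordered from the highest to the lowest mean signal (x axis). Filled points have an adjusted p under 0.05 over all rows. The 16 Adamts3 rows lie between 0.39 and 0.83, and the 5 Adamts17 rows lie on both sides of 0.

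Of the 9 other ADAMTS proteases, all above background, Adamts6 was the only one called by limma, beside 8.4% of all genes above background. Adamts12 and Adamts7, whose proteases cut cartilage oligomeric matrix protein, differed by 0.13 ± 0.08 and 0.12 ± 0.09. Adamts13, the von Willebrand factor protease gene, was above background in Nkx2-1 high only, at 4.45, against 4.21 in Nkx2-1 low, and did not pass (adjusted p = 0.226). Adamts16, Adamts18 and Adamts19 differed by 0.01, 0.10 and -0.06. The rows of Adamts17 disagreed. Its highest-signal row differed by 0.19 ± 0.10 and did not pass, another row was called at 0.58, and the dimmest lay at -0.12.

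ADAMTS-like proteins share the matrix-binding part of ADAMTS proteins and have no protease domain. Adamtsl1 rose, with log2 values of 6.21, 5.97 and 5.91 in Nkx2-1 high, against 5.43, 5.51 and 5.49 in Nkx2-1 low (difference 0.55 ± 0.09, adjusted p = 0.00808). Its second row was called as well, at 0.35. Adamtsl2, Adamtsl4 and Adamtsl5, of which Adamtsl2 and Adamtsl4 encode fibrillin-binding proteins, differed by -0.05 ± 0.07, 0.01 ± 0.08 and 0.13 ± 0.09 and did not pass. Adamtsl3 was not above background.

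Among the ADAM sheddases, Adam15, which encodes a disintegrin that binds integrins, rose slightly. It stood at 7.40, 7.21 and 7.21 in Nkx2-1 high, against 6.85, 6.94 and 6.89 in Nkx2-1 low, with no overlap. The difference was 0.38 ± 0.08 (adjusted p = 0.0265), and the call was lost in 5 of the 6 fits without 1 sample, with an adjusted p up to 0.0913. The call remained only without Nkx2-1 high replicate 3. Adam10, the protease that starts Notch cleavage, had log2 values of 8.75, 8.74 and 8.61 in Nkx2-1 high, against 8.77, 8.58 and 8.55 in Nkx2-1 low. Adam17, which releases tumour necrosis factor and EGF receptor ligands, had 8.19, 8.20 and 8.05 in Nkx2-1 high, against 8.30, 8.04 and 7.97 in Nkx2-1 low. The fractions overlapped for both genes, and the 95% intervals of the differences ran from -0.13 to 0.27 for Adam10 and from -0.19 to 0.27 for Adam17.

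Of the other sheddase genes, Adam9 differed by 0.16 ± 0.09, Adam12 by 0.13 ± 0.09 and Adam19, which acts in heart development in mouse, by 0.22 ± 0.11. Adam8 and Adam33 differed by 0.04 and -0.01, and Adam28 was not above background. Adam11, Adam22 and Adam23 encode ADAMs without a working protease site that serve as receptors of LGI proteins at synapses. None of the 3 passed the limma test, beside 8.4% of all genes above background. With 1 of them, Adam22, at an unadjusted p under 0.05, the shares of all genes were 8.57% higher and 10.4% lower. Adam22 stood at 5.66, 5.65 and 5.65 in Nkx2-1 high, against 5.57, 5.36 and 5.20 in Nkx2-1 low (adjusted p = 0.165). Adam11 and Adam23 differed by -0.15 ± 0.13 and -0.10 ± 0.11.

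The ADAM genes known from testis and epididymis, whose proteins act in sperm maturation and in the binding of sperm and egg, were for the most part not above background. Of 22 such genes 19 were not above background, and the group means of all 22 lay between 1.56 and 5.01. Adam1a, Adam21 and Adam30 were the 3 above it, at 4.83, 4.65 and 4.36 in Nkx2-1 high, against 5.01, 4.64 and 4.38 in Nkx2-1 low. None of the 22 was called by limma, beside 6.0% of all genes. With an unadjusted p under 0.05 there were 0, beside 8.57% of all genes higher and 10.4% lower.

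No MMP or TIMP gene was called by limma, where 6.0% of all genes were called. Of these 26 genes 13 were above background, and before adjustment 3 of the 26 were higher and 1 was lower with p under 0.05, beside the 8.57% and 10.4% of all genes. Mmp14 encodes the membrane-bound protease that, with TIMP2, activates pro-MMP2, the precursor of a gelatinase. Mmp2 had log2 values of 10.67, 10.50 and 10.16 in Nkx2-1 high, against 10.42, 10.38 and 10.16 in Nkx2-1 low. Timp2 had 7.72, 7.50 and 7.29 in Nkx2-1 high, against 7.73, 7.70 and 7.53 in Nkx2-1 low. The fractions overlapped for both. Mmp14 had 9.44, 9.25 and 9.02 in Nkx2-1 high, against 8.99, 8.98 and 8.85 in Nkx2-1 low, with no overlap, a difference of 0.30 ± 0.11 and an adjusted p of 0.174. It was called without Nkx2-1 high replicate 3 (adjusted p = 0.0466).

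Mmp9, the other gelatinase gene, varied more between replicates than between fractions. It stood at 8.19, 7.89 and 7.12 in Nkx2-1 high, against 7.91, 7.70 and 6.93 in Nkx2-1 low. The sample numbered 3 was the lowest in each fraction. The difference of 0.22 ± 0.29 has a 95% interval from -0.44 to 0.87, so a change of up to 0.87 on the log2 scale cannot be told from no change with these samples. Mmp11 encodes stromelysin-3, which furin activates inside the cell. It stood at 7.63, 7.53 and 7.59 in Nkx2-1 high, against 7.35, 7.36 and 7.21 in Nkx2-1 low, a difference of 0.27 ± 0.08 that missed the threshold (adjusted p = 0.0812). It passed under 3 alternatives, namely cyclic loess (adjusted p = 0.0457), only genes above background (0.0427) and the trended robust fit (0.0349).

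Mmp28, or epilysin, differed by 0.24 ± 0.09 (adjusted p = 0.167). Among the membrane-bound MMPs, Mmp16 differed by -0.08 ± 0.10, Mmp17 by 0.08 ± 0.07 and Mmp24 by -0.06 ± 0.08. Mmp25 was above background in Nkx2-1 low only, at 4.28 in Nkx2-1 high, against 4.49 in Nkx2-1 low (adjusted p = 0.255). Mmp23 stood at 4.77 in each fraction. The 4 interstitial collagenase genes Mmp1a, Mmp1b, Mmp8 and Mmp13 were not above background, nor were Mmp3, Mmp10, Mmp7, Mmp12, Mmp19, Mmp20, Mmp21 and Mmp27. Mmp13, one of those printed with its AP-1 element, stood at 3.09, 3.08 and 3.22 in Nkx2-1 high, against 3.19, 3.27 and 3.56 in Nkx2-1 low.

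Of the 4 TIMP genes, which encode the inhibitors, 0 passed the limma test, beside 6.0% of all genes. With an unadjusted p under 0.05 there were 0, beside 8.57% of all genes higher and 10.4% lower. Timp3, the matrix-bound TIMP that also inhibits ADAM17 and aggrecanases, had 9.02, 8.76 and 8.24 in Nkx2-1 high, against 8.61, 8.69 and 8.71 in Nkx2-1 low. The Nkx2-1 high samples lay on both sides of the Nkx2-1 low samples, and the 95% interval of the difference ran from -0.37 to 0.37. Timp1, known as an inducible inhibitor, stood at 5.32 ± 0.16 in Nkx2-1 high, against 5.29 ± 0.03 in Nkx2-1 low (SD, n = 3 each), with an interval from -0.17 to 0.24. The interval for Timp2 ran from -0.40 to 0.10. Timp4 was not above background.

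**Figure D4:**
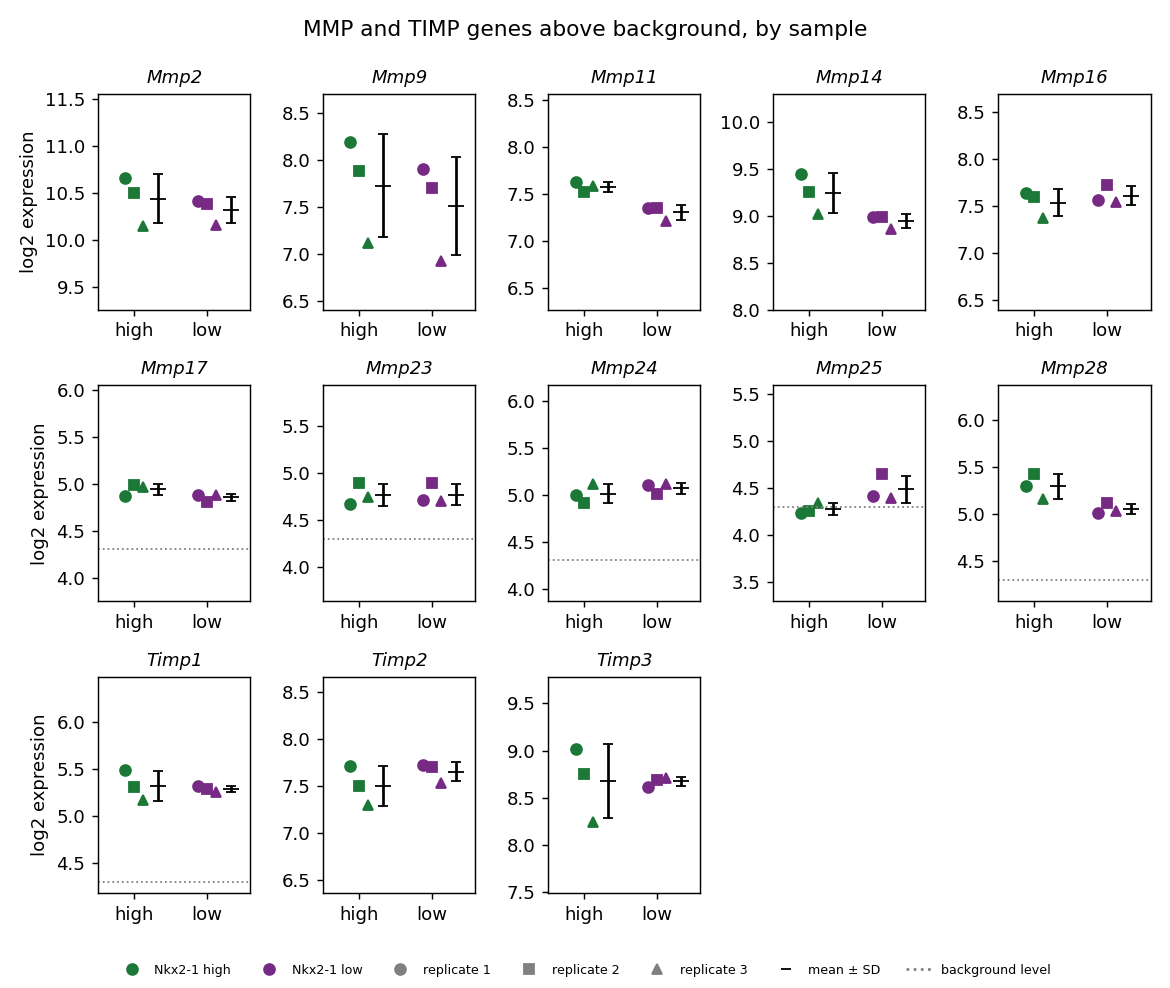
Log2 expression (y axis) of the 13 MMP and TIMP genes above background in each sample of Nkx2-1 high (green, left) and Nkx2-1 low (purple, right), with mean ± SD (n = 3) in black and the background level of 4.30 as a dotted line where it falls within the panel. Triangles mark the samples numbered 3, which are lowest in both fractions for Mmp2, Mmp9, Mmp14, Mmp16, Timp1 and Timp2.

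Other genes of the same pathways were read from lists that were chosen with earlier results of these data known. Of all genes, 2.9% rose and 3.09% fell. Of 9 further zinc metalloproteases of the astacin, pappalysin and neprilysin families 2 rose and 1 fell (median 0.07). The tolloid-like genes Tll2 and Tll1, relatives of the procollagen C-proteinase, rose by 0.71 ± 0.09 (adjusted p = 0.00216) and 0.36 ± 0.09 (adjusted p = 0.0365, called without Nkx2-1 low replicate 1 and in none of the other 5 fits without 1 sample). Mme, the neprilysin gene, fell, with a difference of -1.70 ± 0.26 (adjusted p = 0.00449). Bmp1, the procollagen C-proteinase gene itself, differed by 0.20 ± 0.08 and did not pass. Of 7 serine proteases of the cell surface and matrix Htra1 rose, by 1.17 ± 0.15 (adjusted p = 0.00187), and 0 fell.

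Of 10 regulators of metalloproteases A2m rose, the gene of the broad protease inhibitor alpha-2-macroglobulin, by 0.95 ± 0.21 (adjusted p = 0.0260, up to 0.101 and lost without replicate 2 of either fraction or Nkx2-1 low replicate 1). Reck, a membrane-anchored MMP inhibitor gene, differed by 0.01 ± 0.12, and Rhbdf1, an iRhom gene that helps ADAM17 reach the cell surface, by 0.36 ± 0.09 (adjusted p = 0.0543). Of 6 plasminogen system genes, 5 proprotein convertase genes and 6 genes of EGF-family ligands shed by ADAMs, 0 were called by limma. At an unadjusted p under 0.05 these were 1 lower for the plasminogen system, 1 higher and 1 lower for the convertases, and 2 higher for the ligands, beside the same 8.57% higher and 10.4% lower of all genes. Beside the 2.9% of all genes that rose and the 3.09% that fell, of 9 ADAMTS substrates 0 rose and 4 fell (median -0.26). They were the collagen genes Col1a2 (-1.50 ± 0.08), Col3a1 (-1.11 ± 0.14) and Col1a1 (-0.90 ± 0.09), which are also mesenchyme markers, and Ncan (-0.52 ± 0.11), the neurocan gene of brain matrix. The call of Ncan was lost without Nkx2-1 high replicate 1, Nkx2-1 high replicate 2 or Nkx2-1 low replicate 3 (adjusted p up to 0.0655). Vcan, the versican gene, stood at 9.70 ± 0.12 in Nkx2-1 high, against 9.96 ± 0.07 in Nkx2-1 low (SD, n = 3 each) and did not pass (limma adjusted p = 0.123).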

How the data were processed

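Per the labels' protocols, RNA of the sorted cells went through WT-Ovation Pico amplification and biotin labelling, steps that can change the relative signal of transcripts. The authors deposited log2 expression values, made with RMA per the submitters' processing notes. Array medians lay between 4.98 and 5.06, and the log2 scale was inferred from RMA and from such values. No version of RMA and no build is given in the sources used here. Detection calls, scanner files and scan dates were not used, so array batches were not tested, and the number of arrays limits the precision.

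Of 29011 rows, 21789 had 1 symbol in GEO's platform annotation, 1621 several and 5601 none. The 2 family rows with several symbols were left out. The 83 members rest on 108 rows. Adamts2 and Mmp15 were not analysed here. One limma model with the fraction as its only term (lmFit, then eBayes; limma 3.58.1, R 4.3.3) covered 19938 genes, with Benjamini-Hochberg adjustment, and was tested on simulated data. The background level came from 1210 receptor rows. Figures were drawn with matplotlib 3.10.9.

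Named are the called members, those that differed by at least 0.5, and the leading members of each role group, with up to 4 called genes of each list. Other uncalled genes that are named, such as Bmp1, Reck, Rhbdf1 and Vcan, were picked with their values in view. The members, role groups and lists, as well as Fos and Fosb, were chosen with earlier results of these data known, so no count over them is independent support.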

Additional observations from a re-analysis of the deposited data

How the results depend on the processing

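The count of members that rose was 5, and of members that fell 3, with 1196 called among all genes. Leaving out 1 sample in turn gave 4 to 6 members higher, 0 to 3 lower and 624 to 1086 genes in all. Members lower numbered 0 without replicate 2 of either fraction, and 1 without Nkx2-1 high replicate 1, Nkx2-1 high replicate 3 or Nkx2-1 low replicate 1. All calls fell more than 1.5 times without Nkx2-1 high replicate 1 (772) or 2 (624) and without Nkx2-1 low replicate 1 (765) or 2 (709). Such fits have fewer samples. Adamts6, Adamts5, Adamts8 and Adamtsl1 kept the call in all 6, and no other member did. At a threshold of 0.01 the members lower were 0 and all calls 507. Deviations from the fraction means correlated at 0.18, -0.00 and 0.28 between same-numbered samples and at -0.27 to 0.15 between differently numbered samples. The main fit did not take the numbers as pairs. Whether samples with the same number share a source or a batch was not tested. With the replicate block, 6 members rose (Adamts3 joined, adjusted p = 0.00531), 3 fell and 1470 genes were called. No call of the 8 was lost. Without both samples numbered 3, chosen after seeing the data, 5 rose and 2 fell, with Adamts3 called and Adam15 and Adamts4 not. Over 49 members above background and 16 alternatives, 750 values kept their side of the threshold, 23 lost it and 11 gained it. No difference that was called in the main fit or in the alternative changed sign. Differences called in neither counted as kept even where the sign changed. Adam17, for example, differed by 0.04 in the main fit and by -0.03 without Nkx2-1 low replicate 3. A background level at the 99th percentile of the receptor values left 30 of the 49 members above it, with Adamts8, Adamts15 and Adamts20 below, by construction of the stricter level, so signal near background limits these 3.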

Other observations

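Where members follow each other with no other protein-coding gene between them, the longer runs were mostly not above background. Among the pairs, Adamts1 and Adamts5, Adamts15 and Adamts8, and Adam1a were above background, and Adam1b, Adam6a and Adam6b were not. Besides the 10 genes of the chromosome 9 MMP cluster, all not above background, the runs Adam24, Adam25, Adam20 and Adam39, and Adam26b, Adam26a, Adam34l and Adam34, on chromosome 8 held 4 genes each, none above it. In the run Adam18, Adam3, Adam5, Adam32 and Adam9, also on chromosome 8, 4 of 5 were not above background, and Adam9, a broadly expressed sheddase gene, stood at 7.79 in Nkx2-1 high, against 7.62 in Nkx2-1 low. Some of these genes are near-identical copies, and the array can split or mix their signal.

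For some members, as for some of all genes, the sample numbered 3 was the lowest or the highest in both fractions. Over the 83 members it was the lowest for 16.9% and the highest for 19.3%, beside 14.8% and 17.1% of all genes. Of the 49 above background, the sample numbered 3 was the lowest in both fractions for 13 (26.5%), where this held for 18.9% of all genes above background. It was the highest in both for 10 (20.4%), where this held for 16.8%. The first set held Mmp2, Mmp9, Mmp14, Mmp16, Timp1, Timp2, Adam10, Adam12, Adam17, Adam19, Adam30, Adamts4 and Adamts6. The second held Adamts3, Adamts5, Adamts7, Adamts8, Adamts16, Adamts19, Adam21, Adam23, Adam33 and Mmp24. These are descriptions of 6 samples with no test.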
